A study of Saccharomyces cerevisiae with 11 samples.

Results

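RNA polymerase III is the nuclear enzyme that makes tRNAs, 5S rRNA and other short RNAs. The 10 genes described here encode the subunits found in RNA polymerase III and in neither of the other nuclear polymerases. They were chosen by name, 10 genes out of 5756 listed in any library, and all 10 passed the filter on low counts in every comparison. In yeast the enzyme has a catalytic core of RPO31 (YOR116C, the largest subunit) and RET1 (YOR207C, the second largest). Around it sit a trimer of RPC82 (YPR190C), RPC34 (YNR003C) and RPC31 (YNL151C), which acts in promoter opening and initiation, and a dimer of RPC53 (YDL150W) and RPC37 (YKR025W), which acts in initiation and termination. A stalk is formed by RPC25 (YKL144C) and RPC17 (YJL011C), and RPC11 (YDR045C) provides the RNA cleavage activity. Since 5S rRNA is part of the ribosome, output of this enzyme is regulated with growth and with ribosome production, and the repressor Maf1 shuts it down under stress.

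Saccharomyces cerevisiae was grown in YPD, and the fragments of mRNA protected by ribosomes (footprints) were sequenced beside fragmented mRNA enriched on oligo-dT. All libraries come from a strain depleted of genomic rDNA, so that its rRNA is made from a plasmid alone. The strain is called yJD1045 in the series description and yJD1046 in the sample fields. One group (WT) carries the wild-type rRNA sequence on the plasmid, and the other (ΔES7S) a sequence without ES7S, an expansion segment of the 18S rRNA. Each strain has 3 footprint libraries. ΔES7S has 3 mRNA libraries and WT has 2, numbered 2 and 3, since the first WT mRNA replicate is not used here. Whether the replicates come from separate cultures is not stated, so a p-value speaks only of the spread between these libraries. No spike-in is named, and all values are shares of a library. Cytosolic ribosomal protein genes took 11.02%, 7.91% and 5.33% of footprint counts in ΔES7S replicates 1, 2 and 3, against 5.31% to 5.46% in WT. In the R64 gene table no other gene overlaps the coding region of any of the 10.

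The subunits are present in 1 copy each per enzyme, but their genes were not read at equal levels. Per kb of coding length, WT footprints ran from 24.9 ± 5.15 CPM per kb for RPO31 to 265 ± 10.5 for RPC11 (SD, n = 3), where CPM are counts scaled to the library total. The median of all 5678 genes with a WT footprint was 47.4 CPM per kb. RPC11 lay above 85.9% of these genes and RPO31 above 32.4%. RPC11 was apart from the other 9 in every footprint library, with 270, 273 and 253 CPM per kb in WT and 286, 218 and 209 in ΔES7S. Below it in WT came RPC37 at 109 ± 12.3, RPC53 at 105 ± 13.9, RPC34 at 85.5 ± 4.13, RPC31 at 77.8 ± 5.55, RPC17 at 71.7 ± 13.2 and RPC25 at 59.8 ± 5.30. The 3 longest genes were lowest, RPC82 at 40.4 ± 6.34, RET1 at 32.7 ± 4.38 and RPO31. In this order the ranges of neighbours overlapped, except between RPC11 and RPC37, RPC53 and RPC34, and RPC25 and RPC82.

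The order was a different one in mRNA. WT mRNA was highest for RPC31 at 92.9 ± 8.72 CPM per kb, RPC34 at 91.3 ± 3.97, RPC37 at 87.1 ± 6.50, RPC53 at 83.6 ± 4.97 and RPC11 at 83.5 ± 15.9 (SD, n = 2), and the ranges of neighbours among these 5 overlapped. RET1 followed at 62.7 ± 1.86, then RPC82 at 45.5 ± 0.55 and RPC25 at 44.4 ± 1.83, whose ranges overlapped with each other. RPO31 at 28.0 ± 0.11 and RPC17 at 22.0 ± 3.64 were the lowest. The coefficient of variation over the 10 genes was 41.4% and 43.9% in the WT mRNA libraries. In WT footprints it was larger, at 81.1%, 88.5% and 69.0%. RPC11 alone took 27.2% to 33.5% of the summed density of the 10 in WT footprints, against 11.8% to 14.1% in WT mRNA. Among the others the WT means ran from 24.9 to 109 CPM per kb in footprints and from 22.0 to 92.9 in mRNA. The spread without RPC11 was not computed.

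**Figure D1:**
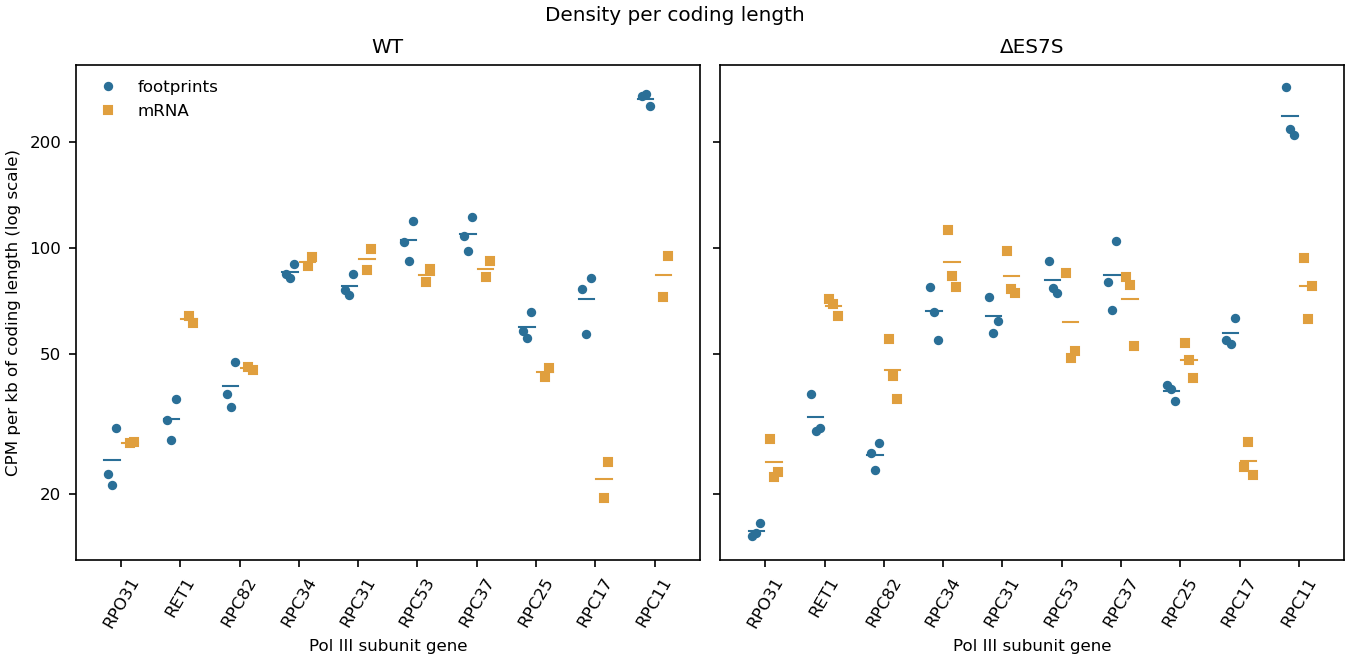
CPM per kb of coding length (log axis) for each of the 10 genes in WT (left) and ΔES7S (right), with blue circles for footprint libraries, orange squares for mRNA libraries and a bar at each mean. RPC11 footprints lie at 209 to 286 CPM per kb in all 6 libraries, and RPC17 has more footprints than mRNA per kb where RET1 has fewer.

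Ratios between partners of 1 sub-complex cancel differences in depth between libraries. The termination dimer was near parity in WT, with an RPC53 to RPC37 density ratio of 0.959 ± 0.020 in footprints (SD, n = 3) and 0.960 ± 0.015 in mRNA (n = 2). In ΔES7S this ratio ranged more widely, from 0.712 to 1.16 in footprints and from 0.622 to 1.02 in mRNA. RPC34 and RPC31 of the trimer were also near parity, at 1.10 ± 0.025 in WT footprints and 1.03 ± 0.135 in ΔES7S footprints. The third member RPC82 stood at 0.471 ± 0.050 of RPC34 in WT footprints and 0.498 ± 0.028 in WT mRNA.

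For the stalk, footprints and mRNA gave opposite orders. RPC25 mRNA exceeded RPC17 mRNA per kb by 2.22-fold and 1.86-fold in WT and by 2.24-fold, 1.72-fold and 1.89-fold in ΔES7S. In footprints the same ratio lay between 0.761 and 0.978 for WT and between 0.579 and 0.746 for ΔES7S. It was below 1 in all 6 libraries, and the strains did not overlap. The catalytic core ratio did not overlap between the strains either. The RPO31 to RET1 ratio was 0.701, 0.743 and 0.826 in WT footprints and 0.397, 0.512 and 0.535 in ΔES7S footprints, without overlap. For their mRNAs the ratios were 0.436 and 0.458 (WT) and 0.400, 0.323 and 0.359 (ΔES7S), also without overlap. The RPC82 to RPC31 footprint ratio was apart too, at 0.479 to 0.565 in WT and 0.361 to 0.452 in ΔES7S. The footprint ratios of RPC82 to RPC34, RPC34 to RPC31 and RPC53 to RPC37 overlapped between the strains. In mRNA the RPC34 to RPC31 ratio was apart, at 0.950 and 1.02 in WT and 1.04 to 1.15 in ΔES7S. The other mRNA ratios outside the core overlapped. These ratios are a description within libraries and were not tested. How often other pairs of genes are apart between the strains was not counted. Pairs of the trimer reuse the same genes, and the ratios use the same counts as the strain tests below.

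Footprints relative to mRNA, a measure of how densely each message is read by ribosomes, differed widely among the subunits. In WT 3 of the 10 genes had relatively more footprints than mRNA (31.5% of 5588 genes did) and 1 had fewer (31.6% of genes did), while 6 did not pass. RPC17 had a log2 ratio of 1.77 ± 0.22 (SE; adjusted p = 2.02e-05 by edgeR) and RPC11 one of 1.74 ± 0.18 (adjusted p = 3.9e-06), higher than 94.3% and 94.1% of all genes tested. RPC25 had 0.50 ± 0.14 (adjusted p = 0.00762, and 0.0737 without WT mRNA replicate 2). RET1 was the 1 gene that was lower, at -0.86 ± 0.16 (adjusted p = 0.000368). RPC53 at 0.40 ± 0.17 and RPC37 at 0.40 ± 0.21 missed the threshold, with adjusted p = 0.0584 and 0.119. RPC53 passed in WT without WT footprint replicate 2 (adjusted p = 0.0476) or without ΔES7S mRNA replicate 1 (0.0167), a library that enters through the shared spread. RPO31, RPC82, RPC34 and RPC31 lay between -0.18 and -0.02.

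In ΔES7S 2 of the 10 genes had relatively more footprints than mRNA (35.2% of genes did) and 6 had fewer (36.7% of genes did). RPC11 at 1.53 ± 0.15 and RPC17 at 1.09 ± 0.19 again had more. RET1 at -1.14 ± 0.14, RPC82 at -0.89 ± 0.14, RPO31 at -0.74 ± 0.13, RPC34 at -0.54 ± 0.14, RPC31 at -0.46 ± 0.13 and RPC25 at -0.39 ± 0.13 had fewer, with adjusted p from 1.45e-05 to 0.0169 by edgeR. RPC25 lost its call without ΔES7S mRNA replicate 2 (adjusted p = 0.0764) or ΔES7S footprint replicate 3 (0.0534). RPC53 at 0.34 ± 0.15 missed the threshold (adjusted p = 0.0641) and passed it without ΔES7S mRNA replicate 1 (0.004), and RPC37 at 0.12 ± 0.19 did not pass. The median over the 10 genes was 0.19 in WT and -0.42 in ΔES7S, beside 0.00 and -0.02 for all genes tested. Shorter genes had relatively more footprints in general: the rank correlation of coding length with the WT ratio was -0.297 across 5584 genes and -0.745 across the 10, which share the same libraries. RPC11 and RPC17 are the shortest of the 10, at 333 and 486 bases of coding length, and the part of length in their values was not tested.

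**Figure D2:**
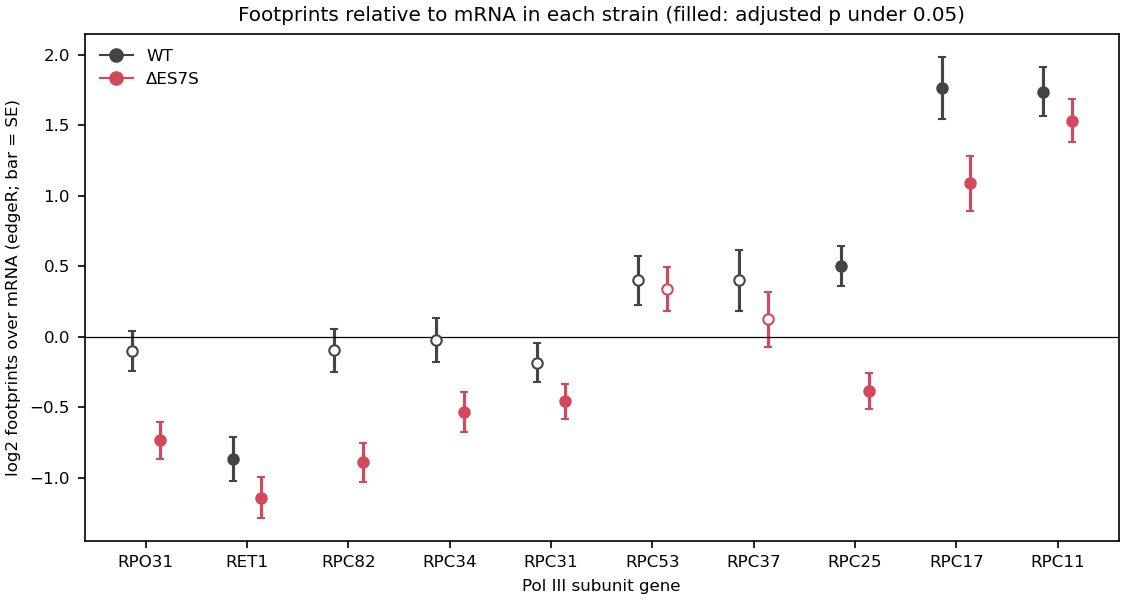
Log2 ratio of footprints to mRNA from the model of all 11 libraries, for each gene in WT (grey) and ΔES7S (red), with SE bars and filled points at an adjusted p under 0.05. RPC17 and RPC11 lie above 1 in both strains, and RPC25 is above 0 in WT (0.50) and below 0 in ΔES7S (-0.39).

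The comparison of strains asks how the polymerase III genes were used by ribosomes that lack ES7S. Footprints fell for RPO31, RPC82 and RPC25, that is for 1 subunit each of the core, the trimer and the stalk, by 0.53 to 0.59 on the log2 scale. That is 3 of 10 lower and 0 higher, where 12.6% of all 5442 genes tested were lower and 14.2% higher, and the other 7 did not pass. The median log2 fold change of the 10 was -0.29, beside 0.00 for all genes, and 9 of the 10 values were negative. By unadjusted p, 5 of the 10 lay under 0.05, where 39.2% of genes did. By CPM, in 5 of the 10 genes every ΔES7S footprint library lay below every WT library, which 27.3% of all genes did, and in 0 above, which 17.2% did. With the TMM factors that scale libraries in the tests, RPC31 was no longer among these 5. The shares of all genes on that scale were not counted.

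In the catalytic core, RPO31 footprints were 99.6, 92.8 and 135 CPM in WT replicates 1 to 3 and 66.7, 67.9 and 72.3 CPM in ΔES7S replicates 1 to 3. The groups did not overlap, and the log2 fold change was -0.59 ± 0.13 (SE; adjusted p = 0.00956 by edgeR). RET1 footprints were 112, 98.4 and 129 CPM in WT and 132, 104 and 106 CPM in ΔES7S. They overlapped, with a log2 fold change of 0.10 ± 0.13 (adjusted p = 0.614), the 1 positive value of the 10.

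In the initiation trimer, RPC82 footprints were 75.8, 69.2 and 93.3 CPM in WT and 51.5, 45.9 and 55.0 CPM in ΔES7S. These groups were apart too, at -0.57 ± 0.12 (adjusted p = 0.00739 by edgeR). RPC34 went from 80.2, 78.4 and 86.0 CPM to 73.9, 62.7 and 52.2 CPM, lower in each ΔES7S library, but did not pass the test (-0.29 ± 0.13, adjusted p = 0.126). It passed without ΔES7S replicate 1, at -0.42 with adjusted p = 0.0245. RPC31 had 57.3, 55.7 and 63.6 CPM in WT and 54.8, 43.3 and 46.7 CPM in ΔES7S. Its groups did not overlap by CPM, at -0.21 ± 0.12 (adjusted p = 0.216 by edgeR). With TMM factors they did. There ΔES7S replicate 1 (log2 value centred on the footprint mean 0.089) lay above WT replicates 1 (0.078) and 2 (0.055).

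In the termination dimer neither gene passed the test. RPC53 footprints were 132, 116 and 152 CPM in WT and 117, 97.8 and 94.7 CPM in ΔES7S, which overlap (-0.29 ± 0.13, adjusted p = 0.112 by edgeR). RPC37 footprints were 91.9, 83.0 and 104 CPM in WT and 67.7, 56.6 and 88.9 CPM in ΔES7S, where replicate 3 lay within the WT range (-0.32 ± 0.15, adjusted p = 0.138). Each passed without 1 ΔES7S library: RPC53 without replicate 1 (-0.39, adjusted p = 0.0345) and RPC37 without replicate 3 (-0.49, adjusted p = 0.00906).

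In the stalk, RPC25 footprints were 37.0, 35.5 and 42.0 CPM in WT and 26.1, 25.4 and 23.5 CPM in ΔES7S. The groups lay well apart (-0.53 ± 0.11, adjusted p = 0.00724 by edgeR). Its partner RPC17 had 37.0, 27.6 and 39.9 CPM in WT and 26.6, 25.9 and 30.8 CPM in ΔES7S, which overlap (-0.25 ± 0.14, adjusted p = 0.213). The cleavage subunit RPC11 overlapped as well, with 90.0, 90.9 and 84.4 CPM in WT and 95.1, 72.5 and 69.5 CPM in ΔES7S (-0.08 ± 0.13, adjusted p = 0.681). The calls of RPO31, RPC82 and RPC25 held in all 6 fits that left out 1 footprint library, with adjusted p up to 0.0472. ΔES7S replicate 1 is the library with the largest share of ribosomal protein counts, and without it 5 of the 10 genes passed, all lower, where 12.5% of the 5459 genes tested in that fit were lower.

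**Figure D3:**
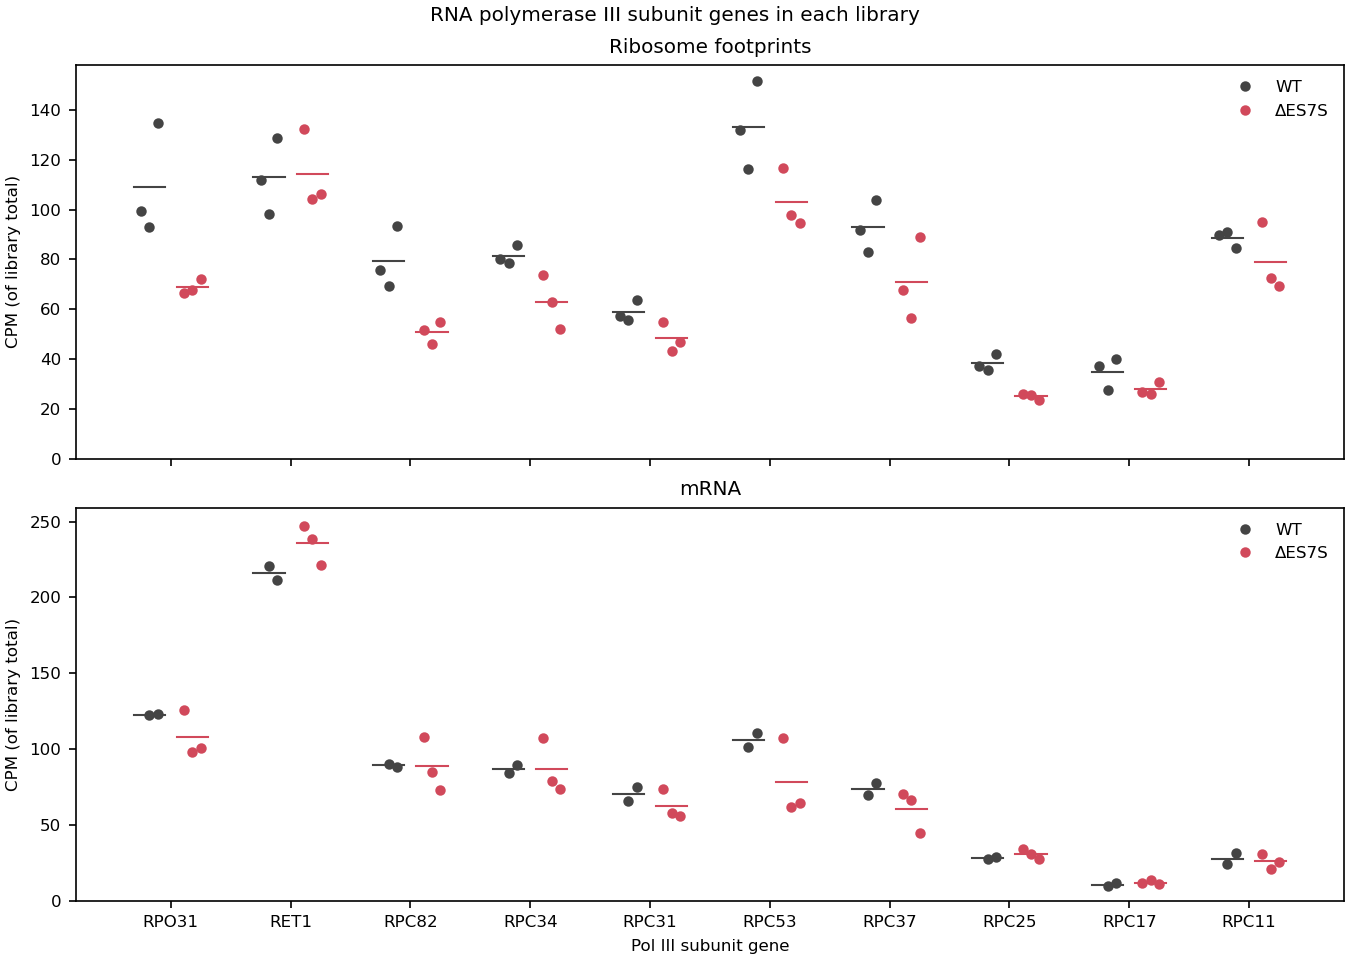
CPM of each of the 10 genes in every footprint library (top) and mRNA library (bottom), WT in grey and ΔES7S in red, with a bar at each group mean. In footprints RPO31, RPC82, RPC34, RPC31 and RPC25 have every ΔES7S point below every WT point. In mRNA RET1 alone is apart, with ΔES7S higher.

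In mRNA no subunit gene was called. Of the 10 mRNAs 0 passed the edgeR test in either direction, where 1.19% of 5611 genes were higher and 1.57% lower. By DESeq2 0 passed as well, where 9.37% of genes were higher and 9.09% lower. By edgeR 0 of the 10 had an unadjusted p under 0.05 (30.8% of genes did). The median log2 fold change was 0.13, beside -0.01 for all genes, and 8 of the 10 values were positive, of which RPO31 and RPC31 turned negative with upper-quartile scaling. These fitted values use TMM factors, which the CPM do not, so that a gene such as RPO31 can have a lower mean CPM in ΔES7S and a fitted change near 0. RPC25 mRNA was 27.5 and 29.2 CPM in WT and 34.2, 30.7 and 27.4 CPM in ΔES7S, which overlap (0.32 ± 0.18, adjusted p = 0.249 by edgeR). RPC82 mRNA was 90.1 and 88.6 CPM in WT and 108, 85.1 and 73.0 CPM in ΔES7S (0.18 ± 0.17, adjusted p = 0.476). RPO31 mRNA was 122 and 123 CPM in WT and 126, 98.0 and 101 CPM in ΔES7S, with a log2 fold change of 0.01 ± 0.14 (adjusted p = 0.969).

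By CPM, RET1 was the only 1 of the 10 mRNAs whose groups did not overlap, with 221 and 212 CPM in WT and 247, 239 and 222 CPM in ΔES7S. It did not pass the test (0.33 ± 0.17, adjusted p = 0.215 by edgeR), and 16.1% of all genes were likewise higher without overlap (37.7% were lower without overlap, and 0 of the 10). RPC17 had the highest estimate and the widest error, 0.38 ± 0.26, at 9.45 and 12.0 CPM in WT and 11.6, 13.6 and 11.01 CPM in ΔES7S. RPC53 had the lowest, -0.27 ± 0.20, with 102 and 111 CPM in WT and 108, 61.9 and 64.6 CPM in ΔES7S. ΔES7S replicate 1 lay within the WT range of RPC53, and without it RPC53 was called lower (-0.47, adjusted p = 0.0205 by edgeR). In that fit 24.4% of 5597 genes were lower and 19.7% higher, and RPC53 was the only 1 of the 10 called. RPC34, RPC11, RPC31 and RPC37 lay between -0.08 and 0.18.

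**Figure D4:**
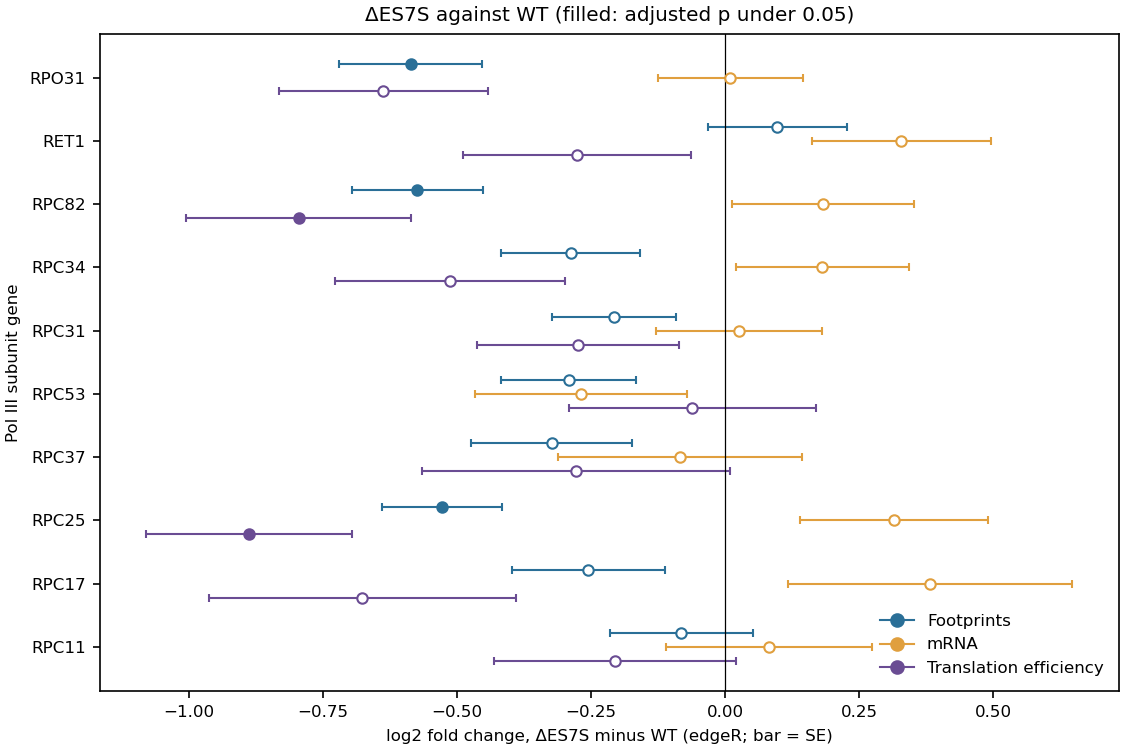
Log2 fold change, ΔES7S minus WT, of each gene in footprints (blue), mRNA (orange) and translation efficiency (purple), with SE bars and filled points at an adjusted p under 0.05. Translation efficiency is negative for all 10 genes, from -0.89 for RPC25 to -0.06 for RPC53, which turned positive with upper-quartile scaling.

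Translation efficiency, the change in footprints beyond the change in mRNA, was tested as the interaction of assay and strain. It fell for RPC25, by 0.89 on the log2 scale (SE 0.19, adjusted p = 0.0218 by edgeR), and for RPC82, by 0.80 (SE 0.21, adjusted p = 0.0379). That is 2 of 10 lower and 0 higher, where 4.33% of 5588 genes were lower and 4.63% higher. All 10 values were negative, RPC53 only with scalings other than upper-quartile (0.04), with a median of -0.39 beside -0.01 for all genes, and 5 of the 10 had an unadjusted p under 0.05 (29.0% of genes did). RPC17 at -0.68 ± 0.29 and RPO31 at -0.64 ± 0.19 came next and did not pass (adjusted p = 0.141 and 0.0578), followed by RPC34 at -0.51 ± 0.21 (adjusted p = 0.136). RPC37, RET1 and RPC31 lay between -0.28 and -0.27, RPC11 at -0.21 ± 0.23 and RPC53 at -0.06 ± 0.23.

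The call of RPC82 rested on most single libraries. It was kept without ΔES7S mRNA replicate 1 or 3 or ΔES7S footprint replicate 3, and was lost without WT mRNA replicate 2 (adjusted p = 0.152) or 3 (0.13), WT footprint replicate 1 (0.0584), 2 (0.0548) or 3 (0.0965), ΔES7S mRNA replicate 2 (0.0711) or ΔES7S footprint replicate 1 (0.0584) or 2 (0.103). With upper-quartile scaling, which moved the median of all genes to 0.10, it had adjusted p = 0.0618, and over all genes 278 were higher and 139 lower in place of 259 and 242. The call of RPC25 was lost without WT mRNA replicate 2 (adjusted p = 0.123) or 3 (0.0748), WT footprint replicate 3 (0.0671) or ΔES7S footprint replicate 2 (0.0633). RPO31 passed without ΔES7S mRNA replicate 1 (0.0276) and by DESeq2 (0.0288), and RPC17 without ΔES7S mRNA replicate 1 (0.0396). More genes passed there in general. Without that replicate 15.7% of all genes were lower and 17.4% higher, and by DESeq2 7.66% were lower and 8.50% higher. The estimates stayed between -0.95 and -0.76 for RPC25 and between -0.88 and -0.68 for RPC82 in the 11 fits that left out 1 library.

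Other genes of the nuclear polymerases were set beside these, and their counts stand against the same shares of all genes in footprints, 12.6% lower and 14.2% higher. Of the 7 subunits that polymerase III shares with other polymerases, 1 had lower and 1 higher footprints in ΔES7S, with a median log2 fold change of -0.10, which is near those shares. The lower one was RPC19, of the assembly platform shared with polymerase I (-0.34 ± 0.10, adjusted p = 0.035 by edgeR). The higher one was RPB5, common to all nuclear polymerases (0.66 ± 0.15, adjusted p = 0.0102). Of the 7 polymerase I subunits 5 fell and 0 rose, with a median of -0.52. These included the largest subunit RPA190 (-0.70 ± 0.14), RPA135 (-0.67 ± 0.15), RPA49 (-0.63 ± 0.14) and the stalk subunit RPA43 (-0.52 ± 0.12), with adjusted p from 0.00509 to 0.0122. Of the 7 polymerase II subunits 2 rose and 0 fell, with a median of 0.03, and these 2 were the stalk pair RPB7 (0.52 ± 0.15, adjusted p = 0.0267) and RPB4 (0.37 ± 0.11, adjusted p = 0.0281). RPB4 and RPB7 are the polymerase II counterparts of RPC17 and RPC25.

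Factors that bring polymerase III to its genes were counted next. Of 10 initiation factor genes 2 rose and 0 fell, near the shares of all genes (14.2% higher and 12.6% lower), with a median of -0.02. These were the TFIIIC subunits TFC3 (0.46 ± 0.10, adjusted p = 0.00762 by edgeR) and TFC7 (0.33 ± 0.11, adjusted p = 0.0433). Of 11 genes for regulators and assembly factors 3 fell and 0 rose, with a median of -0.16. These were LHP1, the yeast La protein that binds the ends of polymerase III transcripts (-0.79 ± 0.13, adjusted p = 0.0021), BUD27, a prefoldin-like protein of polymerase assembly (-0.69 ± 0.14, adjusted p = 0.00588), and GPN2, a GTPase of polymerase assembly (-0.53 ± 0.12, adjusted p = 0.00827). The differences between these lists and the 10 subunits were not tested.

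In mRNA 0 genes of these 5 lists passed by edgeR, while 1 of 7 polymerase I subunits, 3 of 7 polymerase II subunits, 1 of 10 initiation factors, 5 of 11 regulators and 0 of 7 shared subunits had an unadjusted p under 0.05, as did 30.8% of all 5611 genes. The largest values were RPB8 at -0.60 ± 0.33 among shared subunits, RPA43 at -0.74 ± 0.34, RPB3 at -1.01 ± 0.33, the 5S rRNA gene factor PZF1 at 0.81 ± 0.25 and the kinase SCH9 at 0.93 ± 0.27. In translation efficiency RPA190 (-1.15 ± 0.26, adjusted p = 0.0247 by edgeR) and RPA34 (-1.07 ± 0.25, adjusted p = 0.0277) of polymerase I fell, as did SCH9 (-1.20 ± 0.30, adjusted p = 0.0316) and GPN2 (-0.92 ± 0.17, adjusted p = 0.0129), and TFC3 rose (0.71 ± 0.15, adjusted p = 0.0214), where 4.33% of all genes fell and 4.63% rose. No shared or polymerase II subunit passed there, with RPO26 at -0.55 ± 0.24 and RPB3 at 1.01 ± 0.34 as the largest values.

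**Figure D5:**
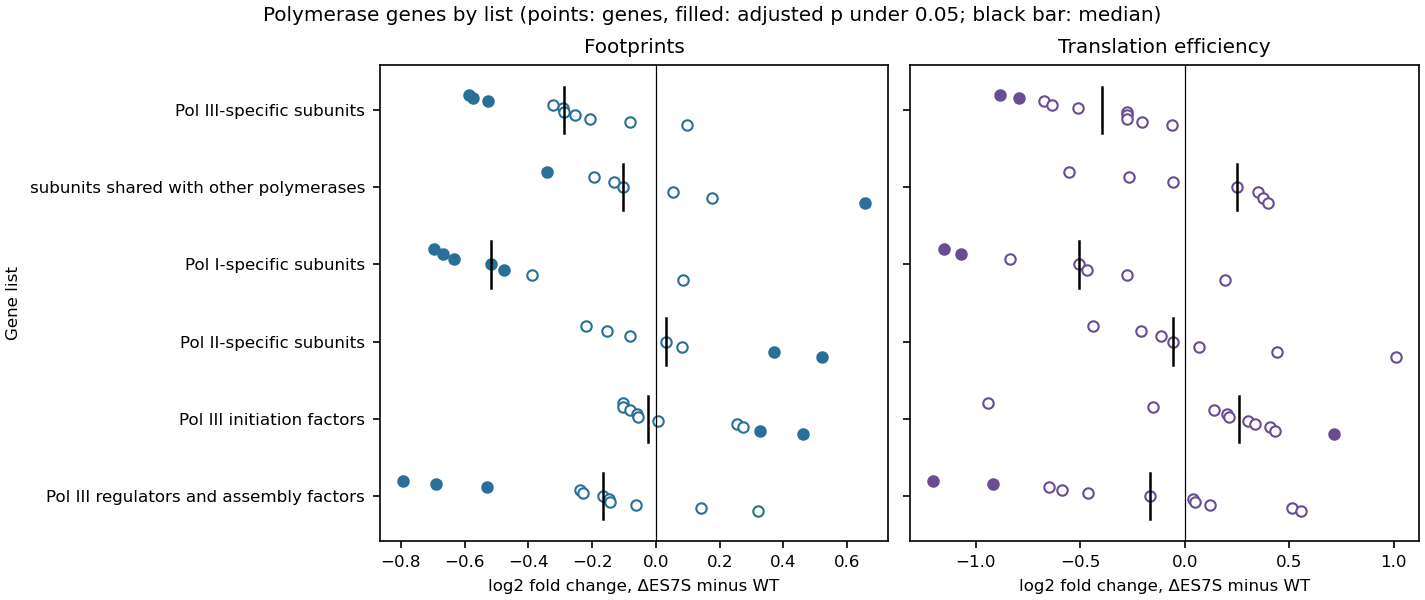
Log2 fold change, ΔES7S minus WT, in footprints (left) and translation efficiency (right) for the 10 polymerase III subunits and the 5 other lists, with 1 point per gene, filled at an adjusted p under 0.05, and a black bar at each median. The footprint medians are -0.29 for polymerase III, -0.52 for polymerase I and 0.03 for polymerase II subunits.

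The genes whose levels followed the mean of the 10 most closely over the 11 libraries were sought among 4846 genes with a mean log2 CPM of at least 4, after each gene was centred within footprints and within mRNA. The highest Pearson r was that of DOM34, which releases stalled ribosomes, at 0.985. Next came NOP4 (0.963) and MRT4 (0.959), both of 60S subunit assembly, and IMP4 (0.958) and DIM1 (0.957), both of 40S subunit assembly. The libraries share their strain and assay, and these values are a description. In ΔES7S footprints, NOP4 had a log2 fold change of -0.76 ± 0.15, MRT4 one of -0.53 ± 0.13, IMP4 one of -0.49 ± 0.12, DIM1 one of -0.41 ± 0.12 and DOM34 one of -0.30 ± 0.11. By edgeR the first 4 were lower, with adjusted p from 0.00471 to 0.0308, and DOM34 did not pass (adjusted p = 0.0724). The genes were chosen for their likeness over these same libraries, so their fold changes are no separate evidence.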

How the data were processed

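Per the labels' protocols, footprints come from RNase I digests after gradient isolation of ribosomes, and mRNA was enriched on oligo-dT and fragmented, with PCR and no molecular identifier named. FastQC 0.11.7 and Bowtie 1.2.3 appear in the submitters' processing notes. Build, annotation, counting tool and strand handling: not given in the sources used here. Raw read counts per gene were deposited, 1 table per library, and a gene not listed was taken as 0. Of 5756 genes, 5752 were matched to symbols and lengths in RefSeq's R64 table, all 10 members among them.

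Counts were fitted in R 4.3.3 with edgeR 4.0.16 (filterByExpr, TMM, glmQLFit with robust=TRUE, glmQLFTest). P-values are two-sided and Benjamini-Hochberg adjusted over all genes tested, at a threshold of 0.05. Footprints were compared over 6 libraries and mRNA over 5. Translation efficiency and footprints against mRNA came from 1 model of all 11 libraries with 1 mean per group, so these share libraries with the other comparisons. SE is the absolute log2 fold change divided by the root of the F statistic. CPM were scaled to the library total, without TMM factors, with SD over libraries. Density is CPM per kb of coding length. The fits were tested on simulated data. DESeq2 1.42.0, other scalings, no filter, a joint fit, a replicate block and leaving out each library were tried. Total counts were 5712239 to 57968667 per library, and each member had 134 to 12272, which sets the counting error, PCR copies aside.

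Members and gene lists were chosen with earlier results of these data known. All 10 members are named. From each other list the members past the threshold are named, at most 4 with the smallest p, or otherwise the member with the largest absolute log2 fold change. Density ratios between subunits were added after values were seen and are given without a test.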

Additional observations from a re-analysis of the deposited data

Results flagged for a closer look

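For 2 of the 10 genes the effect of ΔES7S differed between footprints and mRNA by the test of the difference itself. Both were lower, as were 4.33% of 5588 genes, while 4.63% were higher. RPC25 footprints had a log2 fold change of -0.53 and its mRNA one of 0.32, and the interaction was -0.89 (adjusted p = 0.0218 by edgeR). RPC82 footprints had -0.57 and its mRNA 0.18, and the interaction was -0.80 (adjusted p = 0.0379). In footprints each was lower in 3 of 3 ΔES7S libraries than in any WT library, as were 27.3% of 5442 genes. In mRNA the groups of both genes overlapped by CPM, while with TMM factors those of RPC25 were apart, with ΔES7S higher. Both calls were lost without some of the single libraries named with them above, and that of RPC82 also with upper-quartile scaling (adjusted p = 0.0618).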

How the results depend on the processing

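The footprint calls of RPO31, RPC82 and RPC25 were made under every other scaling, without a filter, by DESeq2, in the joint fit, with the replicate block and in all 6 leave-one-out fits. Leaving out 1 library at a time, footprint calls ranged from 684 to 1749 genes and 3 to 5 of the 10 subunits, mRNA calls from 0 to 2467 genes and 0 to 1 subunits, and translation efficiency calls from 11 to 1848 genes and 0 to 4 subunits. For mRNA, 1036 genes were called by DESeq2, 1463 in the joint fit of all 11 libraries and 1924 with the replicate block, against 155. For translation efficiency, 903 genes were called by DESeq2 and 313 with the block, against 501. Upper-quartile scaling left 1 subunit called in translation efficiency (lower, as were 2.49% of 5588 genes). The cause of these shifts was not tested. Values that changed sign were near 0 in the main fits, though not in every leave-one-out fit. With upper-quartile scaling these were mRNA of RPO31 (-0.062) and RPC31 (-0.047) and translation efficiency of RPC53 (0.040). Leaving out libraries, footprints ran from -0.024 to 0.18 for RET1 and -0.24 to 0.0071 for RPC11. mRNA ran from -0.023 to 0.066 for RPO31, -0.27 to 0.10 for RPC37, -0.094 to 0.15 for RPC31 and -0.13 to 0.31 for RPC11. Translation efficiency of RPC53 ran from -0.16 to 0.11. Footprints against mRNA ran from -0.087 to 0.045 for RPC34 in WT and -0.049 to 0.32 for RPC37 in ΔES7S. Where leaving out a library left WT mRNA with 1 sample, that sample was assumed to vary like the other groups.

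The labels do not say that a replicate number marks a shared batch, and not every same-numbered pair correlated above 0.1, so the samples were taken to share only a number. Same-numbered deviations from the group mean correlated at 0.019, 0.17 and 0.099 between footprints of the strains (replicates 1 to 3). Between mRNA of the strains the values were -0.13 and -0.63 (2 and 3). Between WT footprints and mRNA they were 0.20 and 0.025 (2 and 3), and between ΔES7S footprints and mRNA 0.055, -0.031 and 0.41 (1 to 3). With 2 WT mRNA libraries, the deviations of each gene in them are equal and opposite. The 2 values of each set that uses WT mRNA are therefore not independent. WT footprint replicates 2 and 3 correlated best with their own number in ΔES7S footprints and replicate 1 did not, and of the ΔES7S footprint libraries only replicate 3 did so in mRNA. With the replicate block 1 subunit was called in mRNA (RPC53, -0.47, adjusted p = 0.0382 by edgeR), where 21.2% of 5611 genes were lower and 13.1% higher. In translation efficiency 1 was called (RPC25, lower), where 2.97% of 5588 genes were lower and 2.63% higher, and RPC82 had adjusted p = 0.0752. RPC53 passed as higher in footprints against mRNA in both strains, as did 29.7% of genes in WT and 35.2% in ΔES7S. The mRNA values of RPO31 (-0.028) and RPC31 (-0.021) changed sign.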
